A study of Mus musculus with 10 samples.

Results

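The genes described here encode xenobiotic metabolism enzymes, which are the cytochrome P450s of families Cyp1 to Cyp4, the flavin-containing monooxygenases (Fmo), the epoxide hydrolases (Ephx), the cytosolic and microsomal glutathione S-transferases (Gst and Mgst) and the UDP-glucuronosyltransferases (Ugt). Membership was decided by gene symbol. In the RefSeq gene table, 168 symbols matched these names, and 109 of them had a probe on the array, out of 19096 genes with a probe. Where a gene had more than 1 probe, the brightest over the 10 arrays stood for it. A gene was tested if that probe was well above background on at least 4 of the 5 arrays of a group, and 80 members met this, out of 15586 genes. Of these 80, 76 met it in both groups, 1 (Cyp2b23) in the normal lungs only, and 3 (Cyp2c40, Cyp2c65 and Cyp2c66) in the tumours only. The 29 members not tested were 17 P450s, 10 of the 12 Ugt genes, Fmo6 and Fmo9.

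Xenobiotic metabolism proceeds in stages. P450s and flavin-containing monooxygenases oxidise lipophilic foreign compounds, epoxide hydrolases open the reactive epoxides that P450s can form, and glutathione S-transferases and glucuronosyltransferases attach a water-soluble group that aids export. In the mouse lung much of the P450 content lies in the club cells of the airway lining, and lung P450s are known both for clearing inhaled compounds and for activating some of them to carcinogens.

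RNA was measured in 5 lungs of wild type mice (WT, Lkb1f/f) and in 5 lung squamous cell carcinomas (SCC) of CCSPiCreLkb1f/f mice, all at 13 months of age and of strain B6.129 as the labels spell it, while the study's methods write a semicolon in place of the point. Both groups carried the floxed Lkb1 allele, and the SCC mice also carried the iCre recombinase driven by the promoter of the club cell secretory protein, which deletes Lkb1 in the airway epithelium. The floxed gene encodes a kinase known as a tumour suppressor and now named Stk11. It is not analysed here, since none of the probes was paired with it. RNA came from the whole lung in WT and from the whole tumour in SCC, so less RNA per cell and fewer cells of a type cannot be told apart in any value that follows. The labels number the replicates of each group, and nothing in them states that each came from a separate animal, so the tests measure the spread between these samples. The comparison asked which genes differ in level between the tumour and the normal lung.

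Promoter sequences of 4 members are shown because their levels differed between the groups or among the tumours, and because each held 1 match to a motif of a transcription factor linked to stress or foreign compounds. Each is the stretch of 250 bases before the annotated start, 5′ to 3′ on the strand of the gene, from RefSeq on GRCm38.p6, and capitals mark the motif. Cyp1a1 (chr9:57697363-57697612, plus strand) was among the members with the largest fall in SCC, and Cyp1b1 (chr17:79715062-79715311, minus strand) did not pass. Both hold the core of the aryl hydrocarbon receptor element, GCGTG, with its first printed base at -54 in Cyp1a1 and, on the opposite strand, at -76 in Cyp1b1, counted back from -1 at the base next to the start. Cyp3a13 (chr5:137921620-137921869, minus strand) and Mgst2 (chr3:51660929-51661178, plus strand) were higher in SCC. Both hold the AP-1 element TGAGTCA on the opposite strand, with the first printed base at -91 and -52.
Cyp1a1: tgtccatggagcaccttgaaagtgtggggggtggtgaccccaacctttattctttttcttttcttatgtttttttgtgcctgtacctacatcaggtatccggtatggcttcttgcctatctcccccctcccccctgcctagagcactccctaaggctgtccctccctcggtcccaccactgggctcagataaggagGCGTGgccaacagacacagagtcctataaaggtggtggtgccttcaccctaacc
Cyp1b1: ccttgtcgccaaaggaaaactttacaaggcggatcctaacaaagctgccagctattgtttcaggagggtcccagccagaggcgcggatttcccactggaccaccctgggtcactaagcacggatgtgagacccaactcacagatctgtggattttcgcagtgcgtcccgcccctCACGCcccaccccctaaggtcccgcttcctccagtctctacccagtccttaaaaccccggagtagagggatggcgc
Cyp3a13: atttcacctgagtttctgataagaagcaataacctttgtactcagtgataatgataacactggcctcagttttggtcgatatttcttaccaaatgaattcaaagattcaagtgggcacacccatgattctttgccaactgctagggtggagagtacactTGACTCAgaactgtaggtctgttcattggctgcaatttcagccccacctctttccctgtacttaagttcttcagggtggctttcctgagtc
Mgst2: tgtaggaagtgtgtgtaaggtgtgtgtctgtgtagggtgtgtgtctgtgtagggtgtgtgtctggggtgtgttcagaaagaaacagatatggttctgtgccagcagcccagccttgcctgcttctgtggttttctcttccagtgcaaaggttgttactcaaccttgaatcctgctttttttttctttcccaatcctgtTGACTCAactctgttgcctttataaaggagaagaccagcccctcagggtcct

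The motifs were chosen after the values of these genes were known, and a match is a description of letters, not of a bound site. GCGTG, searched on both strands, was in 28.2% of 27025 mouse promoters of this length. It was in 2 of the 12 members with a promoter sequence that were called higher in SCC, in 4 of 17 called lower (Cyp1a1, Cyp2b10, Cyp2j9 and Gstm1) and in 10 of 38 tested and not called. TGAGTCA was in 4.43% of all promoters, and in 2, 0 and 3 members of these sets. The antioxidant response core TGACNNNGC was in 10.2% of all promoters, and in 0, 1 and 3 members. None of the 4 sequences shown holds a further match to any of the 3 motifs.

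Values are log2 of the scanner's processed signal after quantile normalisation, and a level is compared only between arrays for the same probe. The arrays lay on 3 slides, the first with WT replicates 1 to 4, the second with WT replicate 5 and SCC replicates 1 to 3, and the last with SCC replicates 4 and 5. Between 71.0% and 74.5% of probes were well above background on 9 arrays, and 90.2% on SCC replicate 5. SCC replicate 2 correlated with the WT arrays at r = 0.940 to 0.946 across probes, while the other SCC arrays did so at 0.850 to 0.905. The squamous markers had a summed level of 16.30 on SCC replicate 2, of 18.69 to 18.96 on the other SCC arrays and of 7.63 to 8.17 on the WT arrays. Xist was at 2.58 on SCC replicate 2, at 4.33 and 2.27 on WT replicates 2 and 3, and at 13.75 to 14.19 on the remaining 7 arrays. SCC replicate 5 had Xist at 13.75 together with the Y-linked genes Ddx3y and Eif2s3y at 8.34 and 8.64, which were at 11.28 and 11.66 on SCC replicate 2 and at 2.07 to 3.20 on the other tumours. Whether SCC replicates 2 and 5 share RNA could not be settled, and if they do, the tumours are fewer than 5 independent samples.

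Of the 80 members, 22 were called lower in SCC than in WT and 14 higher, by limma, where a call needed a difference of at least 2-fold and an adjusted p below 0.05. These are 27.5% and 17.5% of the members, against 13.4% lower and 11.6% higher, or 24.9% either way, over all 15586 genes with 1 probe each. On the adjusted p alone, 29 members fell, 16 rose and 35 did not pass, against 28.4% lower and 25.5% higher over all genes. Of the 76 members that met the background filter in both groups, a restriction added after the data were seen, 21 were called lower and 11 higher (27.63% and 14.47%), against 12.55% and 10.03% of 14599 genes. The direction of the other 4 calls, Cyp2b23 lower and Cyp2c40, Cyp2c65 and Cyp2c66 higher, was favoured by the filter, which they met in 1 group only, so their p-values do not support it. The median difference of the members, -0.09 on the log2 scale, lay near that of all genes, -0.04, while their median absolute difference was 0.98 against 0.49. Values of the 5 SCC arrays did not overlap those of the 5 WT arrays for 37 members (46.25%), 25 lower and 12 higher, against 41.4% of all genes. Scaling to the 75th percentile moved the median difference of all tested probes from -0.09 to 0.03, and all 36 called members kept their direction under it. By an exact two-sided permutation test over the 10 arrays, 28 of the 36 called members were at 0.00794, the smallest p this design can give, and the highest was 0.0397. The 36 were called on the same 10 arrays, so these low values add no support.

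**Figure D1:**
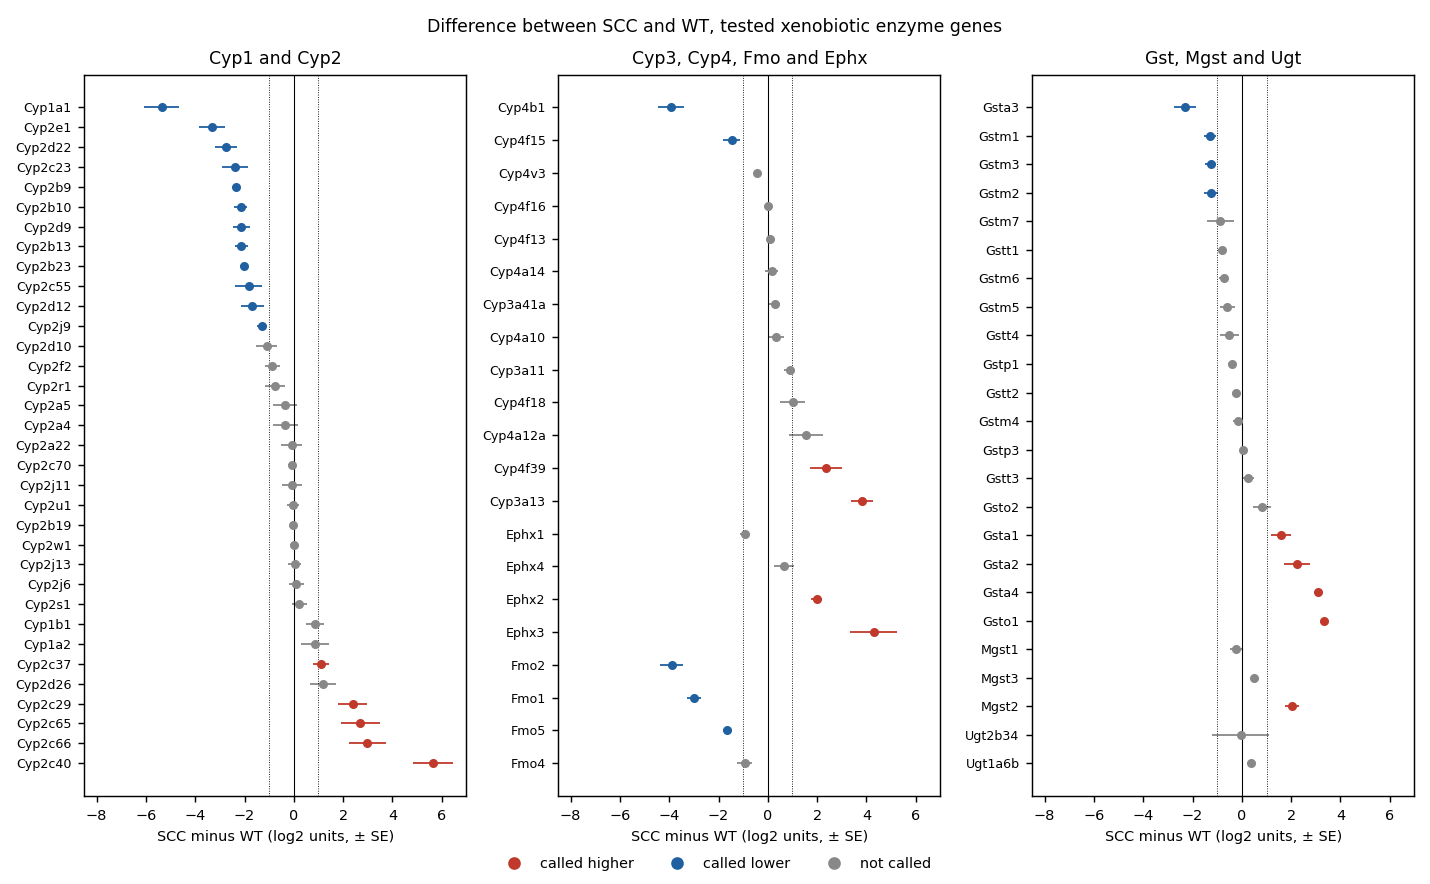
Difference between SCC and WT for 79 of the 80 tested members (x axis: SCC minus WT in log2 units, with SE), in 3 panels by family. Dotted lines mark a 2-fold difference, blue points are members called lower, red points the 14 called higher and grey points the rest. The Fmo genes plotted lie left of 0, while Cyp2c, Gst and Ephx genes lie on both sides.

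The flavin-containing monooxygenases described here, Fmo1, Fmo2, Fmo4 and Fmo5, all moved one way. They oxidise nitrogen and sulphur atoms of drugs and other foreign compounds. Each had a lower signal in SCC at an adjusted p below 0.05, and all but Fmo4 by more than 2-fold. Fmo2, the major isoform of the lung in many mammals, read 13.88, 14.24, 14.22, 14.53 and 14.47 on WT replicates 1 to 5 and 10.47, 12.19, 9.11, 9.87 and 10.15 on SCC replicates 1 to 5. The WT arrays lay close together, the tumours were spread over more than 3 log2 units, and SCC replicate 2 was the tumour nearest to WT. The difference was -3.91 ± 0.48 (SE, n = 5 and 5, limma adjusted p = 0.000145), and a second probe gave -3.60. Fmo1 read 14.47, 14.38, 14.23, 14.66 and 14.38 in WT and 11.30, 12.61, 10.89, 11.13 and 11.17 in SCC. Again the groups were far apart, and SCC replicate 2 was the highest tumour. Its difference was -3.00 ± 0.29 (limma adjusted p = 3.96e-05). Fmo5 fell by 1.64 (limma adjusted p = 5.97e-05), and its other probes fell by 1.85 and 1.75. Fmo4 fell by 0.95 (limma adjusted p = 0.0252), which did not reach 2-fold, and by 1.06 without SCC replicate 2 (limma adjusted p = 0.0179).

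The P450s were divided, with 14 of the 47 tested called lower and 7 called higher, and a median difference of -0.04. Among those lower was Cyp1a1, which oxidises polycyclic aromatic hydrocarbons such as those of tobacco smoke and is the classical target of the aryl hydrocarbon receptor. Its levels were 10.52, 11.26, 11.42, 10.99 and 10.13 in WT and 6.59, 7.77, 4.46, 5.05 and 3.63 in SCC. No tumour came within 2 log2 units of a WT lung, although the tumours differed from one another by more than 4. The difference was -5.37 ± 0.71 (limma adjusted p = 0.000236). With slide as a fixed block, where WT replicate 5 is the only WT array on a slide with tumours, it was -3.86 (limma adjusted p = 0.0593). Cyp1b1, which acts on many of the same hydrocarbons, read 9.30, 9.19, 9.61, 8.75 and 9.39 in WT and 11.10, 8.91, 10.15, 10.61 and 9.74 in SCC. All tumours except SCC replicate 2 lay above the WT lungs. The difference of 0.85 ± 0.37 did not pass (limma adjusted p = 0.0803), and without SCC replicate 2 it was 1.15 (limma adjusted p = 0.00671). Cyp1a2, largely a liver enzyme, differed by 0.86 and did not pass either (limma adjusted p = 0.242).

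Cyp4b1, a lung P450 that activates several protoxins, read 15.99, 15.81, 15.94, 16.20 and 16.26 in WT and 12.36, 13.88, 10.27, 12.10 and 11.88 in SCC. Every tumour was below every WT lung, with SCC replicate 3 the lowest. The difference was -3.94 ± 0.53 (limma adjusted p = 0.000258). Cyp2e1, which oxidises ethanol and small organic solvents, read 9.62, 9.32, 9.15, 9.79 and 9.48 in WT and 6.61, 7.62, 4.96, 6.91 and 4.72 in SCC. The groups did not overlap, and the difference was -3.31 ± 0.53 (limma adjusted p = 0.000685, and 0.0922 with slide as a fixed block).

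The Cyp2b genes, relatives of the phenobarbital-inducible liver P450s, were called lower in 4 of 5 tested, of which Cyp2b9 and Cyp2b10 had neither a probe of the opposite direction nor a tumour level in the background. Cyp2b9 read 15.43, 15.49, 15.40, 15.60 and 15.52 in WT and 13.15, 13.64, 12.65, 13.25 and 13.02 in SCC. The WT lungs lay close together and far above every tumour, and its difference of -2.35 had a limma adjusted p of 7e-06. Cyp2b10, the best known target of the receptor CAR, read 13.08, 13.01, 13.02, 13.32 and 13.16 in WT and 10.73, 12.07, 10.46, 10.91 and 10.61 in SCC. SCC replicate 2 stood above the other tumours here, and the difference was -2.16 (limma adjusted p = 0.000175). Cyp2b13 fell by 2.12 on its representative probe, but a dimmer probe rose by 3.46 and was called higher, so the direction of this gene is not settled. Cyp2b23 fell by 2.02, with the probe well above background on 1 of the 5 SCC arrays. Cyp2b genes are near-identical in sequence and their probes may share targets, as may those of the Cyp2a, Cyp2c, Cyp2d, Gsta and Gstm genes below, so single members of these groups are uncertain.

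Of 5 tested Cyp2d genes, whose human counterpart oxidises many prescribed drugs, 3 fell. These were Cyp2d22 (-2.75, limma adjusted p = 0.000746), Cyp2d9 (-2.13, limma adjusted p = 0.000822) and Cyp2d12 (-1.68, limma adjusted p = 0.0152). Cyp2d12 overlapped between the groups, since SCC replicate 5 was at 7.74 among WT lungs at 7.45 to 7.81. Cyp4f15 and Cyp2j9, of families that oxidise fatty acids, fell by 1.47 and 1.29. With slide as a fixed block Cyp2d22, Cyp2d9, Cyp2d12 and Cyp2j9 differed by -2.29, -1.99, -1.76 and -1.26 and did not pass, while Cyp4f15 did.

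**Figure D2:**
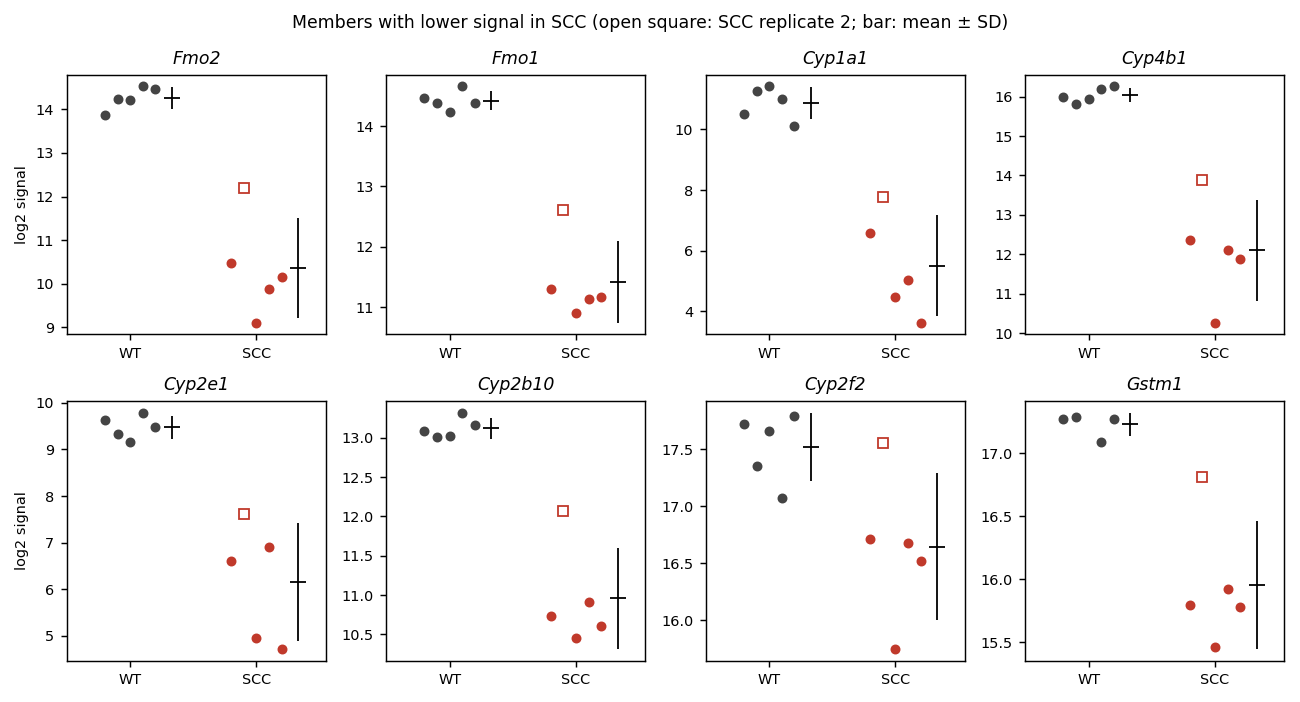
Level of 8 members on each array (y axis: log2 signal, with a separate range in each panel), WT in black and SCC in red, with mean and SD beside the points and SCC replicate 2 as an open square. The open square is the tumour nearest to WT in each panel, and it lies among the WT lungs for Cyp2f2 at 17.56.

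The airway P450s Cyp2f2, Cyp2a5 and Cyp2s1 did not follow one pattern. Cyp2f2, which turns naphthalene into a toxic epoxide and is itself a marker of club cells, read 17.73, 17.35, 17.66, 17.07 and 17.79 in WT and 16.71, 17.56, 15.75, 16.68 and 16.52 in SCC. SCC replicate 2 lay among the WT lungs and the other 4 tumours below all of them. The fall of 0.88 passed narrowly (limma adjusted p = 0.0326) without reaching 2-fold. It no longer passed when any of 8 single arrays was left out, but without SCC replicate 2 the difference was -1.10 (limma adjusted p = 0.00318). Cyp2a5, which activates nicotine-derived nitrosamines, read 11.75, 13.03, 13.09, 10.95 and 13.78 in WT and 12.38, 12.42, 11.54, 12.37 and 12.05 in SCC. Here the WT lungs varied more than the tumours and enclosed them, and the difference of -0.37 did not pass (limma adjusted p = 0.554). Cyp2a4 ordered the WT lungs in the same way, from 10.47 on replicate 4 to 13.36 on replicate 5, as probes of a near-identical pair may. Cyp2s1, an airway P450, differed by 0.22 and did not pass (limma adjusted p = 0.578). The markers Scgb1a1 and Scgb3a2, the main secreted proteins of club cells, fell by 1.33 and 1.32. Of the 5 club markers, 3 were called lower and Muc5b, an airway mucin, was called higher by 7.40. With slide as a fixed block the 3 lower ones, Scgb1a1, Scgb3a2 and Cckar, differed by -1.41, -1.64 and -1.78 and did not pass, while Muc5b did. The summed level of the 5 markers was 18.90 to 19.32 in WT, 19.29 on SCC replicate 2 and 16.72 to 18.46 on the other tumours. Without Muc5b, left out after its values were seen, the sum was 18.90 to 19.32 in WT, 18.83 on SCC replicate 2 and 16.56 to 18.32 on the other tumours. The part of club cell content in the P450 differences was not tested.

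The 7 P450s called higher were Cyp3a13, Cyp4f39 and 5 Cyp2c genes. Cyp3a13, of the subfamily that handles the widest range of drugs, read 7.54, 7.23, 7.21, 6.93 and 7.89 in WT and 11.31, 9.43, 11.80, 11.81 and 11.56 in SCC. All tumours were above all WT lungs, and SCC replicate 2 was the lowest tumour by almost 2 log2 units. The difference was 3.82 ± 0.44 (limma adjusted p = 9.75e-05). Cyp4f39, which hydroxylates the very long fatty acids of the skin barrier lipids, read 7.22, 6.39, 7.05, 6.48 and 6.95 in WT and 9.31, 6.57, 9.86, 10.56 and 9.64 in SCC. SCC replicate 2 lay among the WT lungs, and the difference was 2.37 ± 0.64 (limma adjusted p = 0.0124), and 3.02 without that array (limma adjusted p = 1.99e-05). With slide as a fixed block, over all arrays, it was 1.63 (limma adjusted p = 0.366).

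Cyp2c genes, which oxidise drugs and arachidonic acid, moved both ways, with 5 of 8 tested called higher and 2 lower. Of those called higher, Cyp2c40, Cyp2c65 and Cyp2c66 met the background filter in the tumours only, so their p-values do not support the direction. Cyp2c40 was not well above background on any WT array and read 9.32, 6.35, 9.42, 5.30 and 9.04 in SCC, at least 14.4-fold higher than the WT bound (limma adjusted p = 0.00038). The bound sets the mean of the tumours against the lowest signal that counted as well above background on each WT array, or the probe's own signal where that was higher. Without SCC replicate 4, the lowest tumour, it was at least 22.5-fold higher. A second Cyp2c40 probe, also not well above background on any WT array, was at least 3.50-fold higher. Cyp2c66 was not well above background on any WT array either and was at least 4.31-fold higher, or at least 2.68-fold without SCC replicate 2, with SCC readings of 5.31, 8.88, 5.96, 4.47 and 6.11. SCC replicate 2, the tumour nearest to WT in most of the falling genes, was the highest here. Cyp2c65, Cyp2c29 and Cyp2c37 rose by 2.69, 2.38 and 1.10 (limma adjusted p = 0.0181, 0.00706 and 0.0220). When slide was fitted as a fixed block they differed by 2.13, 2.73 and 0.53, and none passed (limma adjusted p = 0.370, 0.110 and 0.490). Cyp2c65 was well above background on 2 of the 5 WT arrays, and it rose by 2.02 without SCC replicate 2 (limma adjusted p = 0.0144). Cyp2c37 was not called without SCC replicate 5 (0.77) or without WT replicate 2 (1.04, limma adjusted p = 0.0511). Cyp2c23 and Cyp2c55 fell by 2.38 and 1.83 (limma adjusted p = 0.00475 and 0.0212), but with slide as a fixed block the differences were -1.94 and -0.44, and neither passed (limma adjusted p = 0.206 and 0.748). Under normexp background correction, 6 of these Cyp2c calls (Cyp2c23, Cyp2c29, Cyp2c37, Cyp2c55, Cyp2c65 and Cyp2c66) and those of Cyp2b23 and Cyp2d12 were lost.

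Glutathione S-transferases conjugate glutathione to electrophiles and were called higher in 4 and lower in 4 of 19 tested. Gsto1, the omega class enzyme that also reduces arsenic species, read 14.23, 14.11, 14.42, 13.89 and 14.22 in WT and 17.62, 17.02, 17.66, 17.56 and 17.75 in SCC. The gap between the groups exceeded the spread within either by far, and SCC replicate 2 was again the lowest tumour. The difference was 3.35 ± 0.16 (limma adjusted p = 8.63e-07). Gsta4, which detoxifies 4-hydroxynonenal, a product of lipid peroxidation, read 10.70, 10.68, 10.76, 10.43 and 10.94 in WT and 13.65, 13.80, 13.81, 14.01 and 13.63 in SCC. All 5 tumours, SCC replicate 2 included, lay close together and far above the WT lungs. The difference was 3.08 ± 0.12 (limma adjusted p = 2.14e-07), and it was 2.81 with slide as a fixed block (limma adjusted p = 0.000818).

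The other alpha class genes differed in direction. Gsta2 read 9.41, 9.22, 9.36, 8.64 and 9.75 in WT, and in SCC 9.42 on replicate 2 and 11.67 to 12.49 on the other 4 arrays, with SCC replicate 2 among the WT lungs. It rose by 2.25 (limma adjusted p = 0.0057), or by 2.77 without that array, and Gsta1, its close paralog, by 1.60 (limma adjusted p = 0.0089). With slide as a fixed block, Gsta2 differed by 1.41 and Gsta1 by 0.88, and neither passed (limma adjusted p = 0.361 and 0.448). Gsta3, in contrast, read 15.14, 15.50, 15.42, 15.49 and 15.71 in WT and 12.73, 14.81, 11.98, 13.20 and 13.03 in SCC. The tumours were all below the WT lungs, although SCC replicate 2 was close to the lowest of them. The difference was -2.30 (limma adjusted p = 0.00182), and a second probe fell by 2.43.

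Of the 7 mu class genes tested, 3 were called lower and none higher. Gstm1 read 17.27, 17.28, 17.09 and 17.27 on the 4 WT arrays with a value, since WT replicate 3 was flagged by the scanner, and 15.79, 16.81, 15.46, 15.92 and 15.78 in SCC. The groups did not overlap, and the difference was -1.27 (limma adjusted p = 0.00261, and 0.129 with slide as a fixed block). Gstm3 and Gstm2 fell by 1.26 and 1.25, and for Gstm2 SCC replicate 2, at 14.78, lay among the WT lungs. With slide as a fixed block they differed by -1.20 and -1.23, and neither passed. Gstp1, the pi class enzyme often abundant in human tumours, differed by -0.41 (limma adjusted p = 0.0307), a pass that was lost when any of 7 single arrays was left out. Its second probe differed by -0.29 and did not pass (limma adjusted p = 0.154). Gstt1, which acts on small halogenated compounds, fell by 0.80 (limma adjusted p = 0.00408).

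The microsomal transferases are membrane proteins, and Mgst2 also joins glutathione to leukotriene A4. Mgst2 read 12.28, 12.23, 12.49, 11.98 and 12.34 in WT and 13.99, 15.40, 13.98, 13.90 and 14.21 in SCC. Unlike in most other rising genes, SCC replicate 2 was the highest tumour, more than 1 log2 unit above the rest. The difference was 2.03 ± 0.27 (limma adjusted p = 0.000252). Mgst3 rose by 0.48 (limma adjusted p = 0.00434). Mgst1 differed by -0.24 and did not pass (limma adjusted p = 0.413), and without SCC replicate 2 the difference was -0.48 (limma adjusted p = 0.00228).

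**Figure D3:**
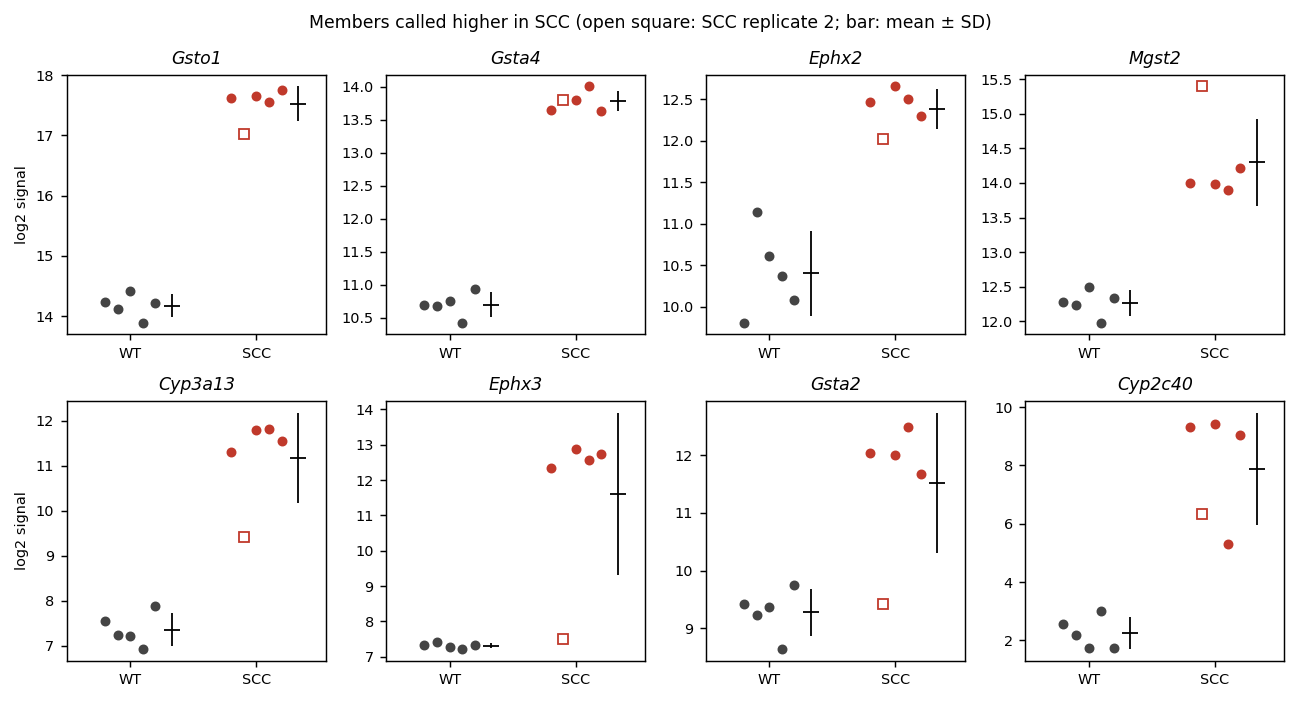
Level of 8 members called higher in SCC on each array (y axis: log2 signal, with a separate range in each panel), WT in black and SCC in red, with mean and SD beside the points and SCC replicate 2 as an open square. The groups are apart on every array for Gsto1 and Gsta4, while the open square lies near the WT lungs for Ephx3 and Gsta2 and above the other tumours for Mgst2.

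Epoxide hydrolases also differed within the family. Ephx2, the soluble enzyme that hydrolyses the epoxides of arachidonic acid, read 9.81, 11.15, 10.61, 10.37 and 10.09 in WT and 12.46, 12.02, 12.65, 12.50 and 12.30 in SCC. All tumours were above all WT lungs, and the difference was 1.98 ± 0.24 (limma adjusted p = 0.000131). Ephx3, an enzyme of skin and other squamous epithelia that acts on fatty acid epoxides, read 7.35, 7.41, 7.27, 7.22 and 7.33 in WT and 12.35, 7.50, 12.87, 12.57 and 12.73 in SCC. Hence 4 tumours were about 5 log2 units above the WT lungs and SCC replicate 2 barely exceeded the highest of them. The difference was 4.29 ± 0.93 (limma adjusted p = 0.00409), 5.31 without SCC replicate 2 (limma adjusted p = 6.05e-09), and 3.58 with slide as a fixed block (limma adjusted p = 0.209). Ephx1, the microsomal enzyme that handles the epoxides of foreign compounds, fell by 0.92 on its representative probe (limma adjusted p = 0.00297) and by 1.00 on the other, which was called lower. Without SCC replicate 2 the representative probe fell by 1.10 (limma adjusted p = 3.28e-05). Ephx4 differed by 0.65 and did not pass (limma adjusted p = 0.220).

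Only 2 Ugt genes were tested, and neither passed. Ugt1a6b, a glucuronosyltransferase for phenols, differed by 0.38 (limma adjusted p = 0.0993). Ugt2b34 read 8.10, 7.85, 8.11, 8.01 and 8.09 in WT and 6.75, 12.36, 5.18, 6.36 and 9.24 in SCC. SCC replicates 2 and 5 were above all WT lungs and the other 3 tumours below all of them, so that the mean difference was -0.05 (limma adjusted p = 0.974).

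SCC replicate 2 was the tumour nearest to WT in 19 of the 22 members called lower (86.4%, against 69.9% of all genes called lower) and in 8 of the 14 called higher (57.1%, against 72.2% of all genes called higher). Without it, 17 members were called higher and 27 lower, and all 36 called with it were among them. The 8 that were added were Cyp1b1, Cyp2d10, Cyp2f2, Cyp4f18, Ephx1, Fmo4, Gsto2 and Gstm7, named after their values were seen. Without SCC replicates 2 and 5 together, 16 were called higher and 27 lower, and 35 of the 36 were among them. With slide as a fixed block, 17 of the 36 called members passed, 7 higher and 10 lower. Among them were Fmo1, Fmo2, Fmo5, Cyp2b9, Cyp2b10, Cyp4b1 and Cyp4f15 of the lower, and Cyp3a13, Gsta4, Gsto1, Mgst2 and Ephx2 of the higher. Cyp2b13, whose probes differed in direction, and Cyp2b23, Cyp2c40 and Cyp2c66, which met the background filter in 1 group only, also count among the 17, and their p-values support no direction. The block moved the difference by more than 1.5 times in 5 of the members that passed and in 6 that did not, the latter being Cyp1a1, Cyp2c55, Cyp4f39, Ephx3, Gsta1 and Gsta2. Of those that passed, Cyp3a13 was then at 2.96 and Cyp4f15 at -2.42. Normexp background correction moved the difference toward 0 by more than 1.5 times in 15 of the 36, among them Cyp1a1 (-3.46), Cyp2e1 (-2.17), Cyp2d22 (-1.68), Cyp3a13 (3.12) and Ephx3 (3.67), which were still called. Within the slide that held both groups, all 36 had the same sign as over all arrays, with WT replicate 5 as its single WT array. This difference is the same estimate as that of the fixed block and comes from arrays used for the calls, so the shared sign adds no support.

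**Figure D4:**
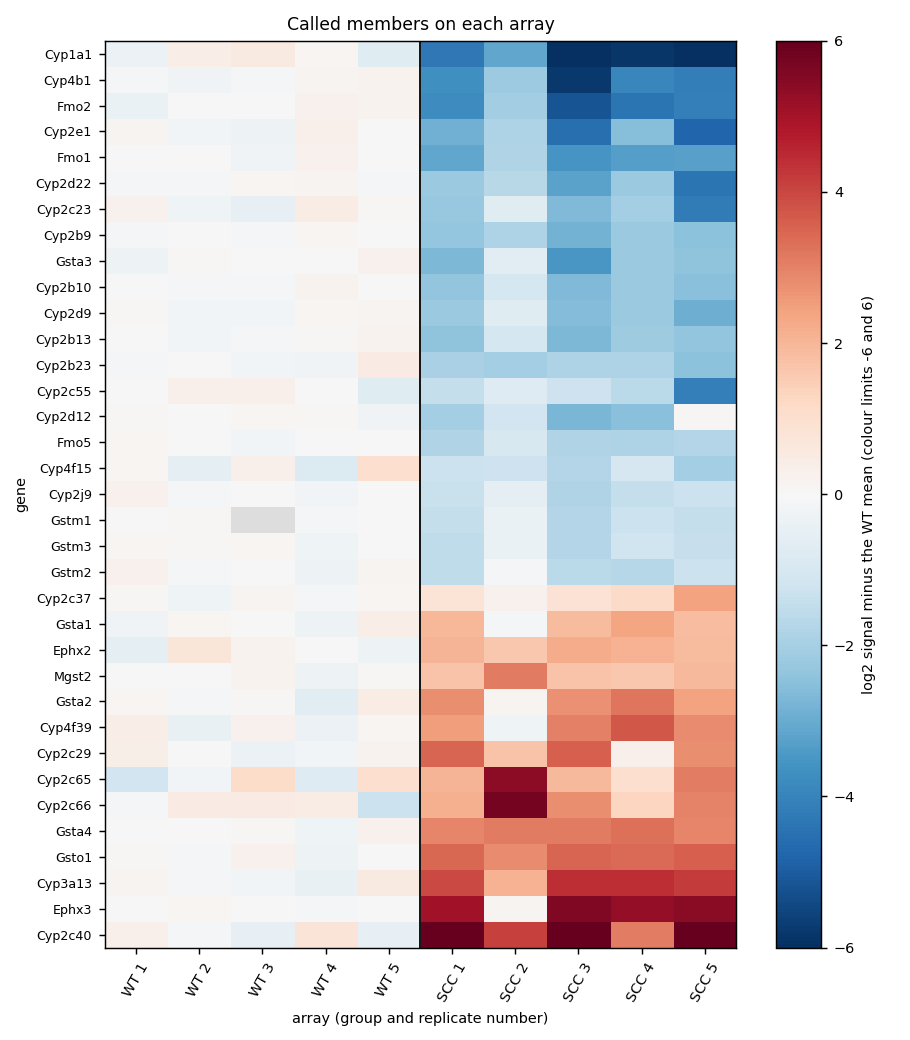
Of the 36 called members, 35 (rows, from the largest fall to the largest rise) on each array (columns), coloured by log2 signal minus the WT mean, with colours limited to -6 and 6 and grey for the missing Gstm1 value. The column of SCC replicate 2 is paler than those of the other tumours in most falling genes and in Ephx3, Gsta1, Gsta2 and Cyp4f39, and darker in Cyp2c65, Cyp2c66 and Mgst2.

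Other genes of the pathway were taken from a list of 70, covering regulators, redox partners, other oxidation, reduction and hydrolysis, other conjugation, and transporters. Of 66 tested, 5 were called higher and 17 lower, against 11.6% higher and 13.4% lower over all genes. On the adjusted p alone 16 rose and 26 fell, against 25.5% and 28.4% over all genes, with a median difference of -0.10. None of the 4 redox partners was called. Por, the reductase that passes electrons to every microsomal P450, differed by -0.27 (limma adjusted p = 0.242), and Cyb5a fell by 0.90 (limma adjusted p = 0.000706), and fell by 1.03, a call, without SCC replicate 2 (limma adjusted p = 1.66e-06).

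Of the 11 regulators tested, 3 were called lower. Ahr, the receptor that induces Cyp1a1, read 12.90, 12.96, 12.66, 12.71 and 12.63 in WT and 12.87, 13.03, 12.71, 12.66 and 12.74 in SCC. The groups overlapped fully, and the difference was 0.03 (limma adjusted p = 0.834). Its partner Arnt fell by 0.64 (limma adjusted p = 0.00978), and its repressor Ahrr, which is also one of its targets, fell by 1.36 (limma adjusted p = 0.00155). Ahrr met the background filter in WT only, so its p-value does not support its direction. Ppara, the receptor of fatty acids, fell by 1.49 and Rxrg, a retinoid X receptor, by 2.37. Nfe2l2, the regulator of antioxidant genes, differed by 0.27 and did not pass (limma adjusted p = 0.0676).

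Among conjugating enzymes the sulfotransferases Sult1d1 and Sult1a1 fell by 4.29 and 2.43, and the acetyltransferase Nat1 by 1.57. Gsr, which regenerates reduced glutathione, rose by 1.09 (12.77 ± 0.10 in WT and 13.86 ± 0.17 in SCC, SD, n = 5), and Ugdh, which makes the donor for glucuronidation, by 1.06. Among the oxidising, reducing and hydrolysing enzymes 7 were called lower. They were the paraoxonase Pon1 (-3.76), the carboxylesterases Ces1d (-2.72) and Ces1g (-2.07), the aldehyde dehydrogenases Aldh1a1 (-2.38) and Aldh2 (-1.50), the monoamine oxidase Maob (-2.12) and the aldehyde oxidase Aox1 (-1.04). Aox1 was under 2-fold without SCC replicate 3, SCC replicate 4 or WT replicate 5 (-0.93, -0.91 and -0.96). The alcohol dehydrogenase Adh7 and the aldo-keto reductase Akr1b8 rose by 2.27 and 1.73. Without SCC replicate 2 the carboxylesterase Ces1f and the alcohol dehydrogenase Adh1 were called too, and fell by 2.86 and 1.71 (limma adjusted p = 0.000546 and 0.00133). Nqo1, a quinone reductase, fell by 0.99 (limma adjusted p = 0.0133) without reaching 2-fold, and by 1.10 without SCC replicate 2 (limma adjusted p = 0.00802). Of the transporters Abcc4, an export pump for conjugates, rose by 1.26, while Slc22a3, Slco2a1, Slco3a1 and Abcb1a fell by 2.11, 1.76, 1.40 and 1.25. Nat1 and Slc22a3 were each well above background on 1 of the 5 SCC arrays, and Sult1d1 and Ahrr on 3, so the tumour levels behind these 4 falls lie partly in the background. These 4 met the background filter in WT only, which favoured their direction, so their p-values do not support it, with or without the slide block. Without SCC replicate 2, Sult1d1 fell by 5.08. When slide was fitted as a fixed block, 8 of the 22 called genes of the list were still called, namely Ahrr, Aldh2, Maob, Pon1, Akr1b8, Gsr, Ugdh and Abcc4. Under it Adh7 differed by 0.70 (limma adjusted p = 0.492) and Abcb1a by -0.48 (limma adjusted p = 0.337), while Rxrg differed by -1.74 and Sult1d1 by -5.03, and none of these 4 passed (limma adjusted p = 0.143 and 0.0779 for the last pair).

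**Figure D5:**
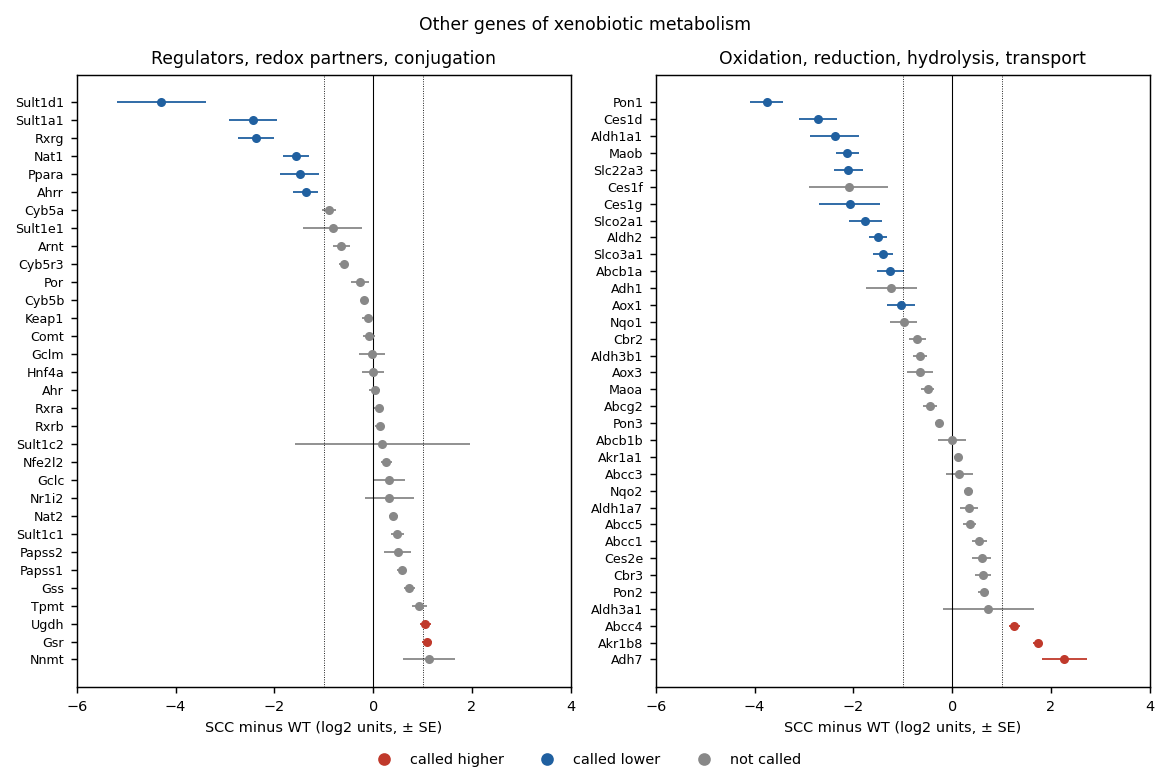
Difference between SCC and WT for the 66 tested genes of the pathway list (x axis: SCC minus WT in log2 units, with SE). Dotted lines mark a 2-fold difference, blue points are the 17 genes called lower, red points the 5 called higher and grey points the rest. Ahr lies at 0.03, and Sult1c2 has the widest error because SCC replicates 2 and 5 lie far above the other tumours.

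Markers of several cell types moved with the tumour. All 8 endothelial markers were called lower, with a summed level of 18.23 to 18.40 in WT and 15.09 to 16.53 in SCC. All 3 adipocyte markers tested were called lower (12.45 to 13.31 against 7.80 to 10.74), as were all 5 cardiac muscle markers (13.68 to 16.98 against 13.23 to 13.53). Adipoq met the background filter in WT only, so its p-value does not support its direction. With slide as a fixed block Adipoq, Plin1 and the cardiac muscle markers did not pass, while the adipocyte marker Cidec did. Ciliated cell markers were called lower in 2 of 6 (13.58 to 15.11 against 11.99 to 14.23) and fibroblast markers in 3 of 6 (16.78 to 16.97 against 16.27 to 16.75). Alveolar type 1 markers were called lower in 4 of 5 (17.97 to 18.14 on WT replicates 2 to 5, against 17.05 to 17.72). On WT replicate 1, where the marker Aqp5 had no value, their sum was 17.59. Aqp5 and the fibroblast markers Col1a1 and Col3a1 rose by 0.64, 0.66 and 0.53, each at an adjusted p below 0.05 and under 2-fold. None of the 8 alveolar type 2 markers was called (19.61 to 19.69 against 19.27 to 19.60), although 5 were lower at an adjusted p below 0.05, and Sftpb and Napsa were called lower without SCC replicate 2 (-1.05 and -1.06). Sftpc, the brightest of them, read 18.80 on all 5 WT arrays and on SCC replicates 1 and 2. Quantile normalisation gives equal ranks equal values, so this sum could show little change. All 7 squamous markers tested were called higher, and 3 of 5 neutrophil markers (14.73 to 15.54 against 14.04 to 16.86, with SCC replicate 2 the lowest). The squamous markers Krt6a, Dsg3, Pkp1 and Ivl met the background filter in the tumours only, so their p-values do not support their direction. With slide as a fixed block the endothelial marker Tek and the called ciliated, fibroblast and neutrophil markers did not pass. The other endothelial and the called alveolar type 1 markers did. Of the hepatocyte markers, Alb, the only one tested, was at 5.33 to 6.26 in WT and at 11.41 and 8.76 on SCC replicates 2 and 5. The others were well above background on too few arrays to be tested, with Apoa1 highest on SCC replicate 2 (6.12) and Ttr and Fgb highest on SCC replicate 5 (6.67 and 7.28). The part of these cell types in the differences of the enzymes was not tested.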

How the data were processed

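Total RNA from 5 WT lungs and 5 SCCs was hybridised to 1-colour Agilent whole mouse genome arrays, 1 array a sample. Per the labels, the authors read the scans with Agilent Feature Extraction 12. The deposited files give each spot's background-subtracted, linear processed intensity, with flags. A deposited matrix holds log2 values, which matched log2 of the quantile-normalised processed intensity (r at least 0.9999 on every array) and served to choose 1 probe a gene and as an alternative. The number of arrays limits the precision.

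Spots flagged as outliers were dropped, repeated spots were averaged, and 41174 probes were quantile-normalised. A probe was well above background on an array when that flag was set for a share of 0.5 or more of its spots. In R 4.3.3, limma 3.58.1 (lmFit, eBayes, two-sided, no covariates) was run on the 30374 tested probes with Benjamini-Hochberg adjustment over all of them. Groups and replicate numbers came from the sample titles. Same-numbered samples did not deviate together (correlations -0.099 to 0.0093), so the numbers do not pair the samples. Accessions were matched to RefSeq symbols (GRCm38.p6), which named 28223 probes (68.5%). The files use another build, so probe coordinates are not given. No probe was saturated. The study's methods used a one-way analysis of variance, for which limma stands in.

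The members and lists were chosen with earlier results of these data known. Members described singly are 22 chosen by name, of which Ugt1a6a had no paired probe, and, among called members, the 12 that rose most and the 12 that fell most, 33 in all. Others are named as they fall in a family. For 1 member no values are given, in the text or in the plots. On simulated data drawn from the 30374 probes, with 5 arrays a group and 200 probes changed by 2 log2 units, the fit recovered 169 with 5 false calls. Alternatives were 75th percentile scaling, the deposited matrix, normexp background correction (offset 50), other filters on dim probes, a one-way analysis of variance as in the methods, slide or replicate as a block, all probes of a gene averaged, and leaving out arrays.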

Additional observations from a re-analysis of the deposited data

Results flagged for a closer look

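Within groups of 5 arrays, a sample was marked as far from the others when its gap to the nearest one, divided by the range of the group, exceeded 0.71. Of 68 groups examined, 13 were marked, and chance marks about 1 in 20. SCC replicate 2 accounted for 10. It was high among the tumours for Fmo1 (gap ratio 0.763, at 12.61 against 11.30 for the next tumour), Cyp2b10 (0.718), Mgst2 (0.789), Mgst1 (0.866), Mgst3 (0.740) and Ephx1 (0.711). It was low among them for Ephx3 (0.903, at 7.50 against 12.35), Cyp3a13 (0.789), Gsto1 (0.735) and Gsta2 (0.732). WT replicate 4 was low among the WT lungs for Gstm1 (0.927, over the 4 arrays with a value, at 17.09 against 17.27) and Gstp1 (0.851, at 15.99 against 16.14). SCC replicate 5 had 90.2% of its probes well above background, against 73.8% on the next tumour (0.861).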

How the results depend on the processing

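The 36 called members kept their direction under 75th percentile scaling, the deposited matrix, normexp, both slide blocks and each left-out array. With slide as a fixed block, which compares the groups on 1 slide with a single WT array, the calls fell to 7 members higher, 10 lower, 9 genes of the pathway list (8 of them among the 22) and 2988 probes, and 17 of the 33 members described singly no longer passed. As a random block (within-slide correlation -0.017) slide gave 14 higher and 23 lower. Normexp called 28 members, all among the 36, and 3969 probes against 6954. On the adjusted p alone 42 genes of the pathway list and 14878 probes passed. Leaving out 1 array gave 13 to 17 members higher, 22 to 27 lower, 22 to 26 genes of the pathway list and 6385 to 8135 probes, with every maximum reached without SCC replicate 2. Cyp2s1, which did not pass, changed sign to -0.44 with slide as a fixed block, -0.0044 without SCC replicate 2 and -0.065 without SCC replicates 2 and 5, and its values with 1 array left out ranged from -0.0044 to 0.39. Cyp2f2 and Gstp1 lost their pass under most left-out arrays. The replicate number as a block gave 14 higher, 22 lower, the same 36 members, 22 pathway genes and 6571 probes, and Cyp2f2 and Gstp1 did not pass there. The share of higher calls among called probes was 43.3%, and 53.2% under 75th percentile scaling. The cause of these changes was not tested. Averaging all probes of a gene ended the pass of Gstm1 (-0.82, adjusted p 0.130), although each of its probes was called lower singly (-1.27 and -1.19), since on WT replicate 3 only the dimmer probe had a value. The 29 members not tested, 10 of the 12 Ugt genes among them, were well above background on too few arrays to be compared.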

Other observations

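Some members stood out on SCC replicate 2, most of them with no call between the groups. In 9 of the 80 tested members that array was at least 2-fold above each of the other 9, namely Ugt2b34, Cyp2c66, Cyp2d26, Cyp2c65, Cyp4a12a, Cyp2j11, Cyp2j6, Mgst2 and Gstm7, while 1.54% of all tested genes were so placed. Cyp2c65 and Cyp2c66 met the background filter in the tumours only, which favoured such a place. The condition was chosen after the values of SCC replicate 2 were seen. Cyp4a12a, a fatty acid hydroxylase, read 9.15 there, 7.01 on SCC replicate 5 and 4.47 to 5.62 on the other 8 arrays. Cyp2d26 read 8.99, 6.50 and 5.28 to 6.09. SCC replicate 5 was the next highest array in 6 of these 9 members, and in 128 of the 240 genes of all tested that met the same condition (53.3%). Outside the members, the sulfotransferase Sult1c2 read 13.08 on SCC replicate 2 and 10.68 on SCC replicate 5, against 3.91 to 4.18 on the other tumours and 6.57 to 7.36 in WT. The aldehyde dehydrogenase Aldh3a1 read 11.93 and 9.44 there, against 6.51 to 7.20 and 7.50 to 8.03.

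The WT lungs differed among themselves in several members. WT replicate 5 was the highest and WT replicate 4 the lowest in 14 of 79 members with a value on every WT array (17.7%), of which 8 were P450s and 5 Gst genes, and in 7.01% of 15530 genes. Wide ranges were those of Cyp2a4 (10.47 to 13.36), Cyp2a5 (10.95 to 13.78), Cyp2a22 (5.68 to 7.97) and Cyp4f15 (8.74 to 10.55). The summed ciliated markers were at 15.11 on WT replicate 5, the highest, and 13.58 on WT replicate 4, the lowest. The summed club markers were at 19.29 and 18.90 on these arrays, but WT replicate 3 was the highest there, at 19.32.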
